A study of Mus musculus with 2 samples.

Results

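The genes described here are the collagen alpha chains and the laminin chains, the structural proteins of basement membranes and of the fibrous matrix around vessels and meninges. They were taken as every gene symbol of the form Col, number, a, number or Lam, a letter from a to c, number. Of 53717 features, 55 symbols matched, and the 44 with at least 20 UMIs (unique molecular identifiers, 1 per captured RNA molecule) over both libraries were kept: 35 collagens and 9 laminins. The 11 left out ranged from Col10a1 and Col6a4, with 0 UMIs, to Col26a1 with 18. Col26a1, with Col20a1 and Lamb3 at 17 UMIs each, lay just outside the limit, and just inside it were Col6a3 and Col7a1 with 26 each. The rule uses symbols and total UMIs and no measured difference between libraries or cell classes, but it was set with earlier results of these data known.

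The study profiled single cells of the hippocampus of 5xFAD mice, a transgenic model of Alzheimer-type amyloid deposition, after hippocampal injection of an adeno-associated virus. The NeuroD1 group carried AAV9-GFAP::NeuroD1-P2A-GFP, in which the astrocyte-associated GFAP promoter drives the neuronal transcription factor NeuroD1 together with GFP. Its control group carried AAV9-GFAP::GFP, with the same serotype, promoter and reporter and no NeuroD1, so that both groups share the 5xFAD strain, the injection and GFP. Per the series' design, there were 3 mice per group and tissue was taken 3 weeks after injection; a time label of 6 months is also given, without saying from when it counts. Each group is 1 library, so the spread between animals cannot be measured, no p-value is given, and every interval covers counting error only.

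The libraries differed in depth and in the RNA that dominated them. The NeuroD1 library had 51236521 UMIs in 13402 barcodes, and the GFP library had 17504950 UMIs in 11739 barcodes. After filtering, 12786 NeuroD1 cells with a median of 2556 UMIs and 11079 GFP cells with a median of 1168 UMIs remained. Ttr, the transthyretin gene of the choroid plexus, made up 13% of the UMIs of the kept NeuroD1 cells and 2.24% of those of the kept GFP cells. The libraries shared 99 barcodes, 0.739% of NeuroD1 barcodes and 0.843% of GFP barcodes.

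Laminins are cross-shaped trimers of 1 alpha, 1 beta and 1 gamma chain that bind receptors on the cell surface and organise the basement membrane sheet, and collagen IV trimers form the network that strengthens it. In brain vessels this sheet lies between endothelial cells, the mural cells (pericytes and smooth muscle) and astrocyte end feet, and several of these cell types contribute chains to it. Fibrillar collagens such as types I and III make up the fibrous matrix of meninges and larger vessels, whose fibroblasts also make the associated collagens VI and XII.

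Cell classes were named from marker genes, none of them a collagen or a laminin, on clusters computed without any collagen or laminin gene, so the levels below did not define the classes. The data held 2043 NeuroD1 and 1013 GFP endothelial cell-like cells. There were 563 NeuroD1 and 269 GFP pericyte-like cells, 242 NeuroD1 and 226 GFP smooth muscle cell-like cells, and 118 NeuroD1 and 28 GFP fibroblast-like cells. The astrocyte-like class held 3671 NeuroD1 and 2164 GFP cells, and the choroid plexus epithelium-like class 879 NeuroD1 and 256 GFP cells. All 11 endothelial, all 10 pericyte and all 9 smooth muscle markers were detected in their own class in both libraries. In fibroblast-like cells, 13 of 13 fibroblast markers were detected in the NeuroD1 library and 12 of 13 in the GFP library. The same markers named the classes, so their detection there is no separate test of the names. Detection was also not specific to a class, since NeuroD1 astrocyte-like cells held all 10 pericyte markers and GFP ones 9 of 10.

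As a share of each class's UMIs, collagen and laminin RNA was highest in fibroblast-like and pericyte-like cells. Summed over the 44 genes, it made up 39.9 of every 10000 UMIs in NeuroD1 fibroblast-like cells (95% Poisson interval 37.7 to 42.1) and 56.8 in GFP fibroblast-like cells (50 to 64.3). Pericyte-like cells followed with 22.2 per 10000 in the NeuroD1 library (21 to 23.3) and 25.6 in the GFP library (23.3 to 28.1). Smooth muscle cell-like cells had 10.8 in NeuroD1 cells and 14.3 in GFP cells, and endothelial cell-like cells 7.21 in NeuroD1 cells and 7.81 in GFP cells. Astrocyte-like cells were at 2.07 per 10000 in NeuroD1 cells and 4.72 in GFP cells. Oligodendrocyte-like cells (1.25 in the NeuroD1 library, 1.81 in the GFP library) and microglia-like cells (1.33 in the NeuroD1 library, 0.826 in the GFP library) had the least of the main glial classes. Choroid plexus epithelium-like cells, at 11.6 in NeuroD1 cells and 9.17 in GFP cells, lay in the range of the vascular classes. By number of UMIs they held the most in the NeuroD1 library, 14945 of the 28345 of the 44 genes. In the GFP library astrocyte-like cells held the most, 1393 of 5893.

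**Figure D1:**
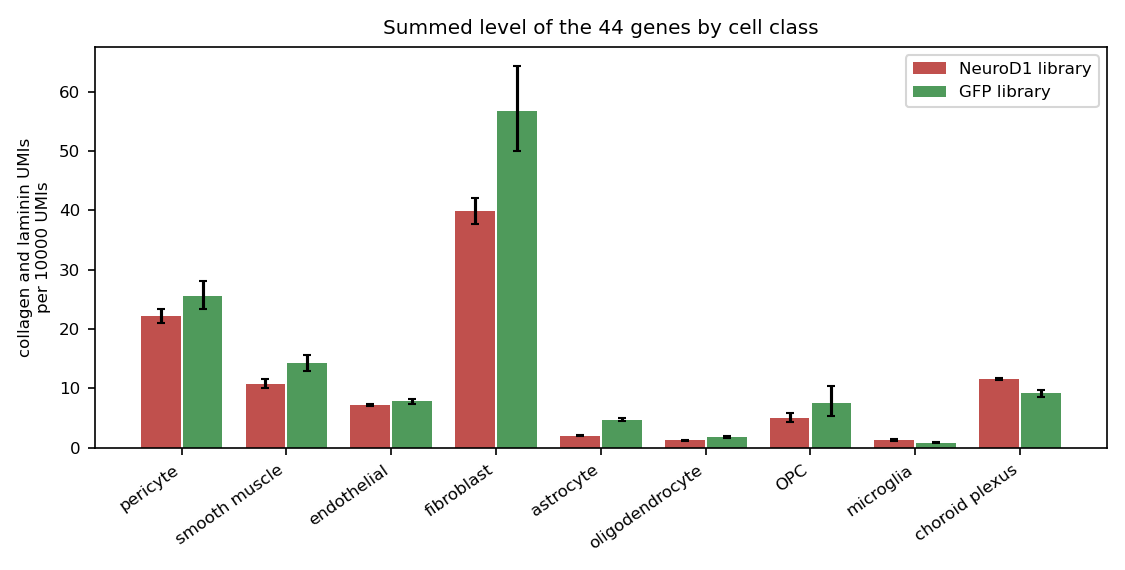
UMIs of the 44 collagen and laminin genes per 10000 UMIs (vertical axis) in each cell class, with the NeuroD1 library in red left of the GFP library in green; error bars are 95% Poisson intervals and OPC is the oligodendrocyte precursor-like class. Fibroblast-like cells stand highest in both libraries and pericyte-like cells come next.

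Gene by gene, 34 of the 44 had their highest level, as the mean of the CPM (counts per 1000000 UMIs of the class) of both libraries, in a vascular or fibroblast-like class, among classes with at least 20 cells in each library. The same was true of 25.1% of all 18209 genes with at least 20 UMIs. Fibroblast-like cells were highest for 21 genes, against 7.68% of all genes, pericyte-like cells for 9, smooth muscle cell-like cells for 3 and endothelial cell-like cells for 1, Lama3. All 9 laminins fell in this group, with 25 of the 35 collagens. Choroid plexus epithelium-like cells led for 4 collagens, Col8a1, Col8a2, Col9a3 and Col17a1, against 4.61% of all genes. Microglia-like cells led for Col6a3 and Col27a1, against 5.12% of all genes, but for neither gene in both libraries. Fibroblast-like cells were highest for Col6a3 in the NeuroD1 library and for Col27a1 in the GFP library. The mean of Col6a3 was 3.16 CPM in microglia-like and 3.12 CPM in fibroblast-like cells. Astrocyte-like cells led for 0 of the 44 by this mean, against 6.46% of all genes, a difference that was not tested. In the GFP library alone they were highest for Col11a2 and Col2a1. The highest class was the same in both libraries for 31 of the 44, and its interval stood clear of all other classes in both libraries for 8. The tally by class was less firm than the total: with cells carrying markers of another vascular or fibroblast class left out, 27 of the 44 genes kept their highest class. That setting left few cells in the leading classes. It kept 7 NeuroD1 and 14 GFP pericyte-like cells, 1 NeuroD1 and 12 GFP smooth muscle cell-like cells, and 17 NeuroD1 and 6 GFP fibroblast-like cells.

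**Figure D2:**
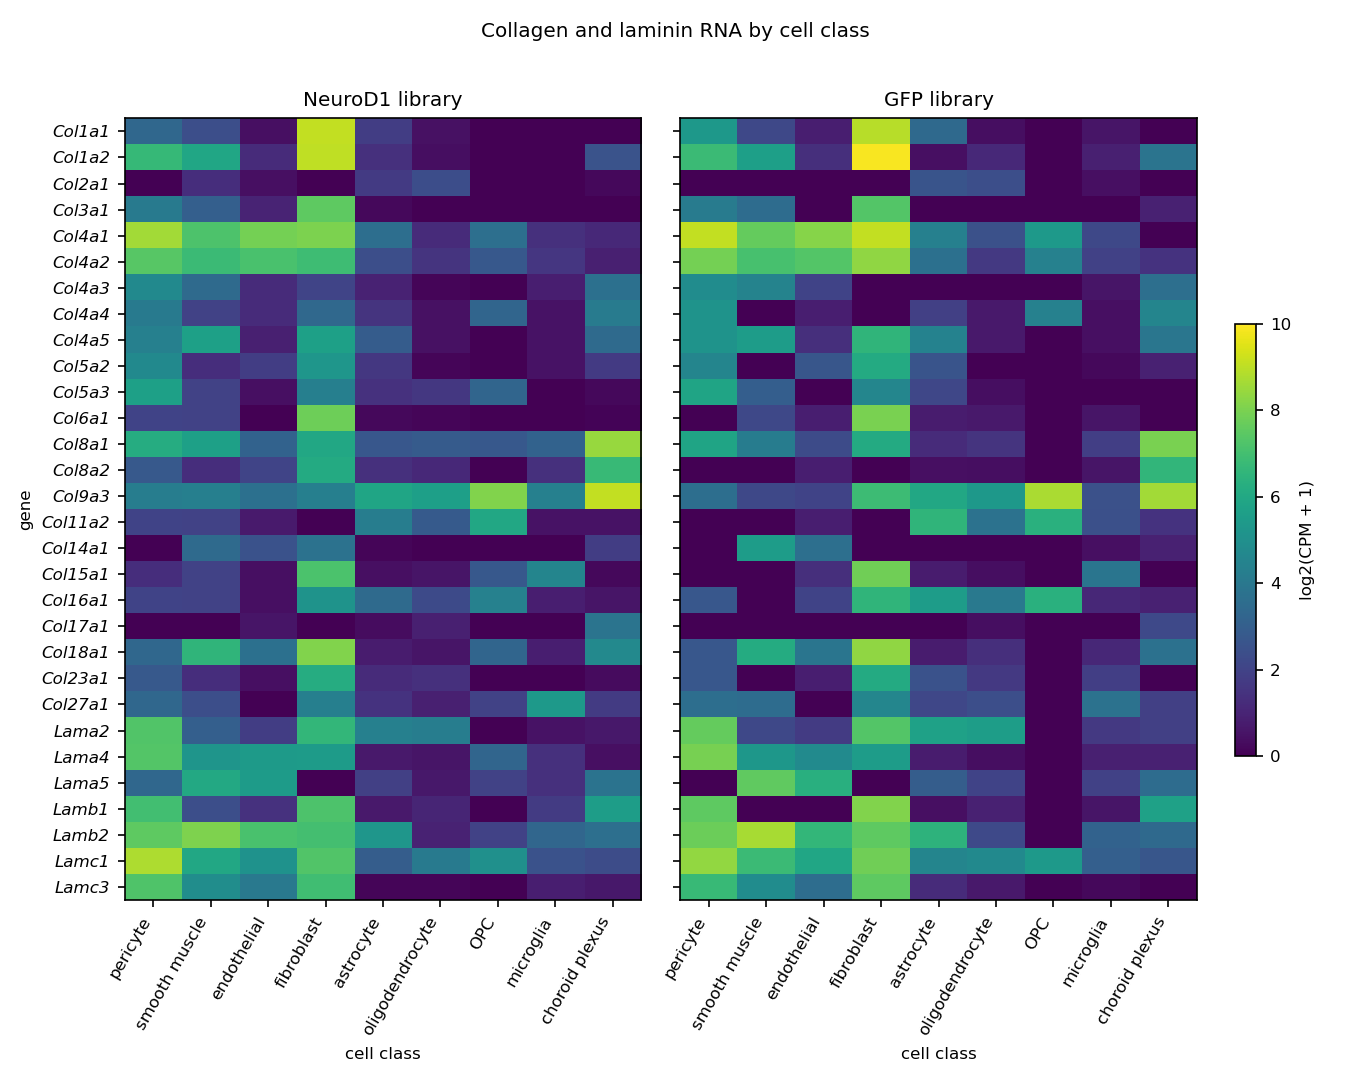
Level of the 30 collagen and laminin genes with at least 100 UMIs in kept cells, as log2(CPM + 1) by colour, in each cell class (columns) of the NeuroD1 library (left) and the GFP library (right). Col1a1 and Col1a2 are brightest in fibroblast-like cells, Col4a1 and Col4a2 are bright in the vascular and fibroblast-like classes, Col8a1 and Col8a2 in choroid plexus epithelium-like cells, and Col9a3 in choroid plexus epithelium-like and oligodendrocyte precursor-like cells.

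By level, the fibrillar collagens of types I and III were highest in fibroblast-like cells in both libraries. Col1a1, which encodes the alpha 1 chain of type I collagen, reached 545 CPM in NeuroD1 fibroblast-like cells (468 to 633) and 479 CPM in GFP fibroblast-like cells (297 to 732). Its partner chain Col1a2 was at 529.9 CPM (453 to 616) in NeuroD1 and 958 CPM (690.5 to 1295) in GFP fibroblast-like cells. Col1a2 also appeared in pericyte-like cells, at 102 CPM in NeuroD1 cells and 113 CPM in GFP cells, where Col1a1 was at 9 CPM in NeuroD1 cells and 39.5 CPM in GFP cells. Astrocyte-like cells had Col1a1 at 2.55 CPM in NeuroD1 cells and 9.83 CPM in GFP cells, and they held 13.4% of its UMIs of the NeuroD1 library and 44.6% of those of the GFP library, beside 78.1% and 32.3% for fibroblast-like cells of the NeuroD1 and GFP libraries. The type I chains thus differed in their spread outside fibroblasts, with Col1a2 the more abundant of the pair in pericyte-like cells. Col3a1, the type III chain, was at 184 CPM in NeuroD1 and 159.7 CPM in GFP fibroblast-like cells, and at 16.5 CPM in NeuroD1 and 16.9 CPM in GFP pericyte-like cells.

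Other fibroblast-led genes included those of type VI, which forms beaded microfilaments, and the fibril-associated type XII. Col6a1 was at 218 CPM in NeuroD1 fibroblast-like cells (170 to 276) and at 251 CPM in GFP fibroblast-like cells (125 to 449), and Col6a2 at 125 CPM in NeuroD1 cells and 114 CPM in GFP cells. The third chain, Col6a3, had only 26 UMIs in all. Col12a1 reached 96.6 CPM in NeuroD1 and 251 CPM in GFP fibroblast-like cells, and the transmembrane collagen gene Col13a1 87.3 CPM in NeuroD1 and 91.2 CPM in GFP fibroblast-like cells. Col18a1, whose C-terminal fragment is endostatin, was at 277 CPM in NeuroD1 and 319 CPM in GFP fibroblast-like cells, and smooth muscle cell-like cells came second, with 92.5 CPM in NeuroD1 cells and 70.2 CPM in GFP cells. Lama1, the laminin alpha 1 gene of the pial basement membrane, was at 162 CPM (121 to 213) in NeuroD1 and 159.7 CPM (64.2 to 329) in GFP fibroblast-like cells. Of the other classes, endothelial cell-like cells came second for Lama1, at a mean of 0.167 CPM.

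The collagen IV genes, which build the basement membrane network, were found in different sets by cell class. Col4a1 was at 390.2 CPM in NeuroD1 pericyte-like cells (344 to 441) and 536 CPM in GFP pericyte-like cells (433 to 655). In endothelial cell-like cells it was at 241 CPM (228 to 253) in NeuroD1 cells and 287 CPM (259 to 318) in GFP cells, and in smooth muscle cell-like cells at 146 CPM (119 to 177) in NeuroD1 cells and 200.1 CPM (152 to 259) in GFP cells. In fibroblast-like cells it was at 262 CPM (209 to 324) in NeuroD1 cells and 547 CPM (351 to 815) in GFP cells, so that the order of fibroblast-like and endothelial cell-like cells was not resolved in the NeuroD1 library, nor that of fibroblast-like and pericyte-like cells in GFP cells. Endothelial cell-like cells held 62.4% of all Col4a1 UMIs of the NeuroD1 library and 56.3% of those of the GFP library. Col4a1 was detected in 43.5% of NeuroD1 and 28.2% of GFP endothelial cell-like cells. With each cell thinned to 500 UMIs these shares were 11.8% (10.4 to 13.3) and 12.8% (10.8 to 15.1) in the NeuroD1 and GFP libraries, against 0.0816% of NeuroD1 and 0.143% of GFP microglia-like cells, a type that should lack the gene.

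Col4a2, its partner chain, was at 168 CPM in NeuroD1 and 237 CPM in GFP pericyte-like cells, and at 140.2 CPM in NeuroD1 and 161 CPM in GFP endothelial cell-like cells. In endothelial cell-like cells Col4a1 took 62.5% of the UMIs of the collagen IV genes in NeuroD1 cells and 63.3% in GFP cells, and Col4a2 took 36.5% in NeuroD1 cells and 35.5% in GFP cells. UMI counts carry no length scaling, since each captured molecule is counted once.

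Choroid plexus epithelium-like cells expressed the other set. There Col4a3 made up 29.1% of collagen IV UMIs in NeuroD1 cells and 23.2% in GFP cells, Col4a4 40.8% in NeuroD1 cells and 44.6% in GFP cells, and Col4a5 24.3% in NeuroD1 cells and 28.6% in GFP cells. Col4a1 was only 3.02% of them in NeuroD1 cells and had 0 UMIs in GFP cells, which allows up to 2.67 CPM. The alpha 3, 4 and 5 chains are the trimer known from the kidney glomerulus, where mutations in them cause Alport syndrome. The levels were low: Col4a4 was at 16.8 CPM (14.6 to 19.2) in NeuroD1 and 22.2 CPM (14.4 to 32.8) in GFP choroid plexus epithelium-like cells. Col4a3 was at 12 CPM in the NeuroD1 and 11.6 CPM in the GFP cells. Pericyte-like cells had more Col4a3 by level, at 25.5 CPM in the NeuroD1 library (14.9 to 40.8) and 28.2 CPM in GFP cells (9.15 to 65.8). The choroid plexus intervals of Col4a3 were 10.1 to 14 in NeuroD1 and 6.15 to 19.8 in GFP cells, so those of the GFP library overlap. Col4a4 was at 16.5 CPM in NeuroD1 and 33.8 CPM in GFP pericyte-like cells, from 11 and 6 UMIs in the NeuroD1 and GFP libraries. In pericyte-like cells both genes came beside far more Col4a1.

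Col4a5 also stood out in smooth muscle cell-like cells, with 15.6% of collagen IV UMIs in NeuroD1 cells and 11.1% in GFP cells. In astrocyte-like cells it made up 26.1% in NeuroD1 cells and 37.7% in GFP cells. Col4a6 reached 8.97% in NeuroD1 and 6.67% in GFP fibroblast-like cells.

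**Figure D3:**
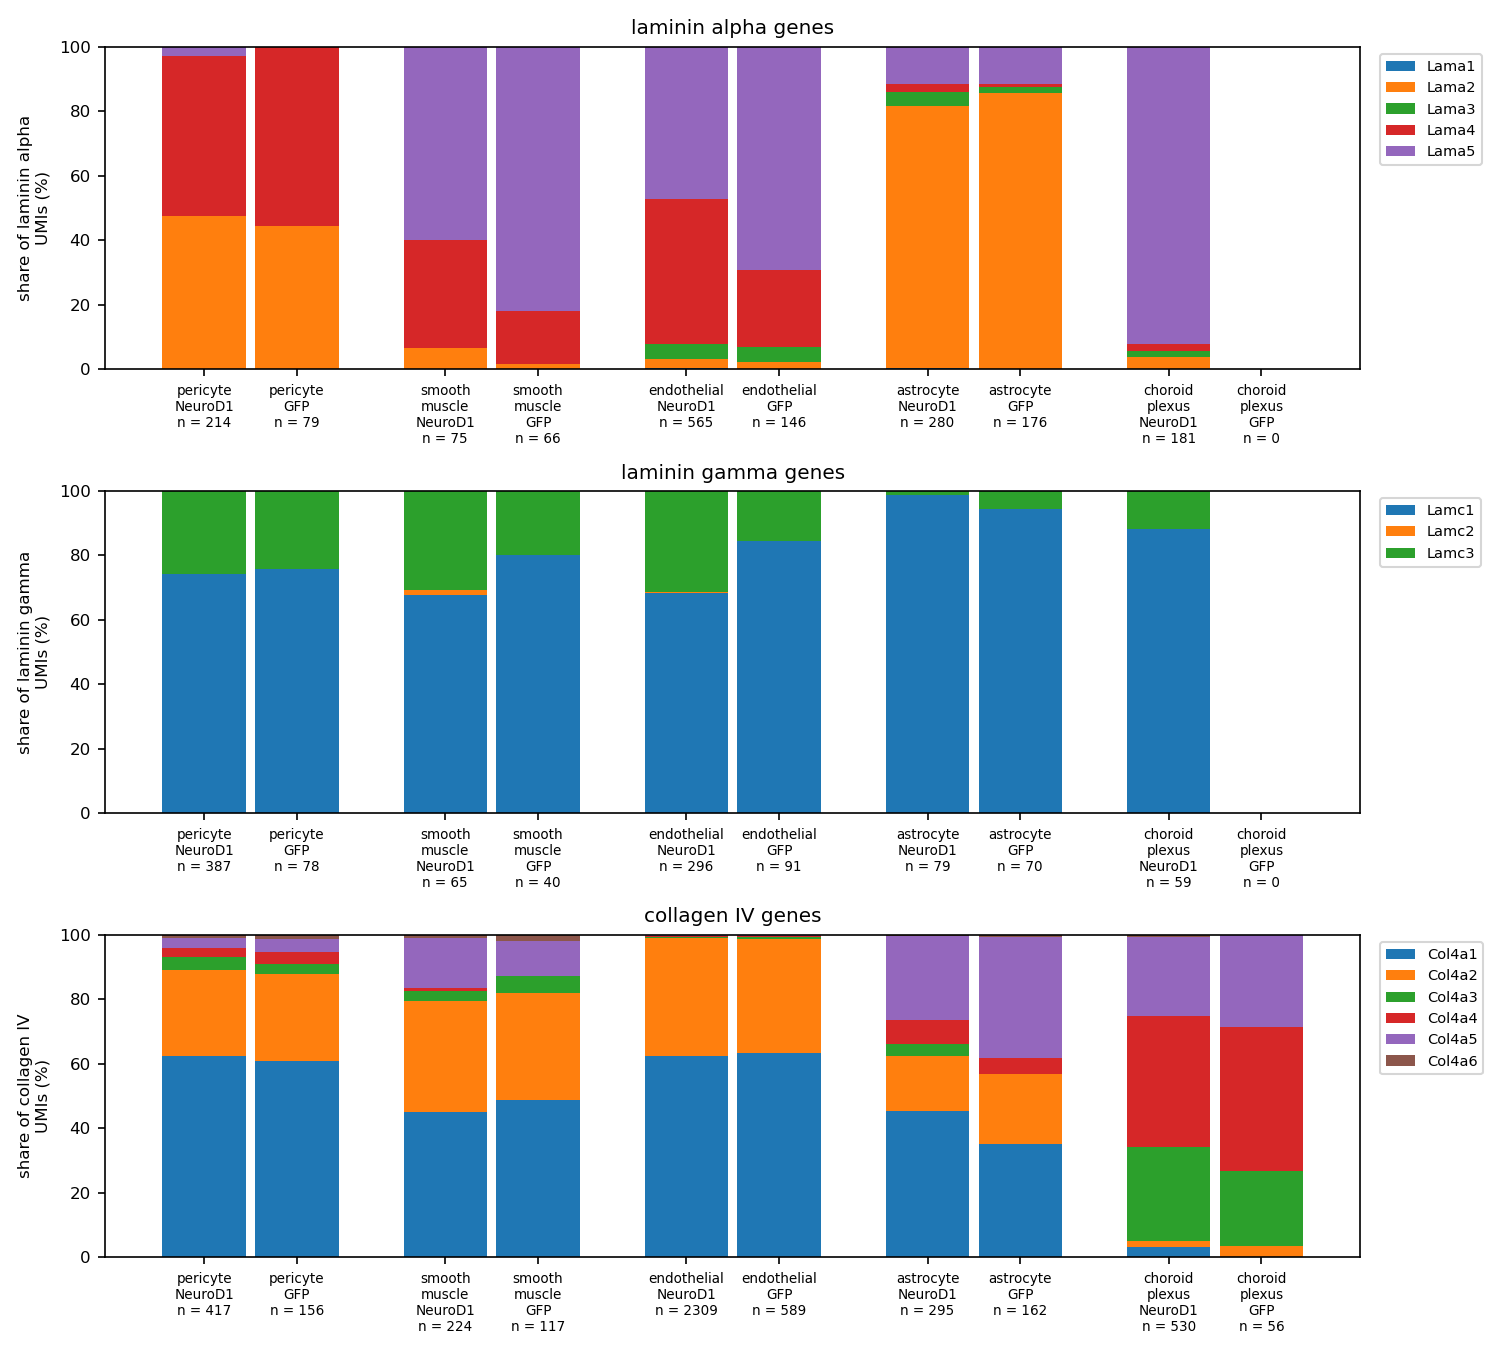
Share of the UMIs of the laminin alpha genes (top), laminin gamma genes (middle) and collagen IV genes (bottom) taken by each gene, in %, for 5 cell classes, each with the NeuroD1 library left of the GFP library; n is the number of UMIs behind each bar. Pericyte-like cells carry Lama2 and Lama4, smooth muscle cell-like cells mostly Lama5, astrocyte-like cells mostly Lama2, and choroid plexus epithelium-like cells Col4a3, Col4a4 and Col4a5 in place of Col4a1 and Col4a2.

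The collagen IV genes lie in head-to-head pairs (Col4a1 with Col4a2, Col4a3 with Col4a4, Col4a5 with Col4a6) in RefSeq's annotation of GRCm38.p6, an earlier build than the mm39 named for the files, and the pairs match the division between cell classes only in part, since Col4a5 parted from Col4a6 in choroid plexus epithelium-like and astrocyte-like cells. RefSeq promoter windows of 300 bases (250 before to 50 after the start) were at hand for 32 of the 44 genes. They are printed for Col4a1 (chr8:11312777-11313076, minus strand) and Col4a2 (chr8:11312555-11312854, plus strand), which share 78 bases, for Col4a4 (chr1:82586800-82587099, minus strand) and Col4a5 (chrX:141475169-141475468, plus strand), which were among the main choroid plexus chains, and for the fibroblast gene Col1a2 (chr6:4505368-4505667, plus strand). Capitals mark matches, on either strand, to CCAAT, to the GC box GGGCGG and to TATAA.
Col4a1: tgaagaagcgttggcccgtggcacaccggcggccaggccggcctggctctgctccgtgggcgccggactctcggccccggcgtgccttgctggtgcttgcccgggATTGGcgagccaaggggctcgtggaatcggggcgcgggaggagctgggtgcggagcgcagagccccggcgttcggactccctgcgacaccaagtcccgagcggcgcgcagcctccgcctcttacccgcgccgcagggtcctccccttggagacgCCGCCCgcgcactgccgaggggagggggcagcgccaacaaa
Col4a2: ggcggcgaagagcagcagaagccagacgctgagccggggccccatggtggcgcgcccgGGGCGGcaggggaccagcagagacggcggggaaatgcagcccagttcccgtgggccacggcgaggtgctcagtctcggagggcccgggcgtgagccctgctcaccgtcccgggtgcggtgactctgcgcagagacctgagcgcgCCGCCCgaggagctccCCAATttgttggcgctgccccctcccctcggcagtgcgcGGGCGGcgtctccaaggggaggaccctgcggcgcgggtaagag
Col4a4: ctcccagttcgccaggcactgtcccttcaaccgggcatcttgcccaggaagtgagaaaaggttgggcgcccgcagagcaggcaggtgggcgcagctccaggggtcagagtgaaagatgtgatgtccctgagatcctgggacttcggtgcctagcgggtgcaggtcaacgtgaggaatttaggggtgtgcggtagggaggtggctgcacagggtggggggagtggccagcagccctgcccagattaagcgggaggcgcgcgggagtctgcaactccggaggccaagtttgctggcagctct
Col4a5: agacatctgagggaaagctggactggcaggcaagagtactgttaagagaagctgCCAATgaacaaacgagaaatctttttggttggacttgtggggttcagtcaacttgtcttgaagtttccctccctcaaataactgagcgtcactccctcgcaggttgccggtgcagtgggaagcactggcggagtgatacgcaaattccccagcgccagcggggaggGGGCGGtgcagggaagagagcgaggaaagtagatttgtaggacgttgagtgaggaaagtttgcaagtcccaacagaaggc
Col1a2: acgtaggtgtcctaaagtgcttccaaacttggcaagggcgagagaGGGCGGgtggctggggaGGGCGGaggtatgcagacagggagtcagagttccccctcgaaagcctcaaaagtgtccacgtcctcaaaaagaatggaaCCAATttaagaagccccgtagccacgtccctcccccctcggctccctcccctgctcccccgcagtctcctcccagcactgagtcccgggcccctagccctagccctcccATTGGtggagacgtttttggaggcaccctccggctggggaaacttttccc
The shared stretch of Col4a1 and Col4a2 holds a GC box, and each gene's window holds 1 CCAAT match. The window of Col4a5 holds 1 of each, that of Col1a2 holds 2 CCAAT matches and 2 GC boxes, and that of Col4a4 holds none of the 3 motifs. None of these 5 windows holds TATAA. Over the 32 genes, 13 had a CCAAT match in a window, against 37.4% of all 32851 windows of that length. The GC box was found for 22 of them, against 35.7% of all windows, and TATAA for 8, against 24.9%. No 2 matches overlap in the printed windows, and a match is a run of letters, not a measured site.

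The laminin alpha chains, which carry the receptor-binding end of the trimer, divided the vascular classes. In pericyte-like cells Lama2 took 47.7% and Lama4 49.5% of alpha-chain UMIs in the NeuroD1 library, against 44.3% for Lama2 and 55.7% for Lama4 in the GFP library. Lama5 was nearly absent there, with 2.80% in NeuroD1 cells and 0 of 79 UMIs in GFP cells. In smooth muscle cell-like cells Lama5 led, with 60% of alpha-chain UMIs in the NeuroD1 library (95% binomial interval 48 to 71.1) and 81.8% in the GFP library (70.4 to 90.2). Endothelial cell-like cells carried both Lama4 and Lama5, the chains of endothelial laminins: Lama4 made up 45.1% in the NeuroD1 library (41 to 49.3) and 24% in GFP cells (17.3 to 31.7), and Lama5 47.1% in NeuroD1 cells and 69.2% in GFP cells.

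Lama2, known for the muscle basement membrane and for congenital muscular dystrophy when mutated, was the main alpha chain of astrocyte-like and oligodendrocyte-like cells. It made up 81.4% of alpha-chain UMIs in NeuroD1 astrocyte-like cells and 85.8% in GFP astrocyte-like cells, and 93% in NeuroD1 and 93.3% in GFP oligodendrocyte-like cells. Its level was highest in pericyte-like cells, at 153 CPM in the NeuroD1 library (125 to 186) and 197 CPM in the GFP library (137 to 274). Astrocyte-like cells had 19.4 CPM in the NeuroD1 library (16.9 to 22.1) and 51.2 CPM in the GFP library (43.3 to 60). They held 36.7% of all Lama2 UMIs of the NeuroD1 library and 40.5% of those of the GFP library. In microglia-like cells Lama2 was at 0.397 CPM in NeuroD1 cells and 2.15 CPM in GFP cells, where it made up 24.5% of 53 alpha-chain UMIs, beside 34% for Lama3 and 32.1% for Lama5.

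Among the beta chains, Lamb2 was almost alone in endothelial cell-like, smooth muscle cell-like and astrocyte-like cells, with 98.8%, 98.4% and 97.6% of beta-chain UMIs in NeuroD1 cells and 100%, 100% and 99.2% in GFP cells, in that order of classes. Lamb1, the more widely expressed beta chain, took 40.8% in NeuroD1 and 45.7% in GFP pericyte-like cells, 52.8% in NeuroD1 fibroblast-like cells, and 79.8% in NeuroD1 and 84.1% in GFP choroid plexus epithelium-like cells. Of the gamma chains, Lamc1, the common one, was highest in pericyte-like cells, at 431 CPM in the NeuroD1 library (382 to 484) and 333 CPM in the GFP library (253 to 429). Lamc3 took 25.8% of gamma-chain UMIs in NeuroD1 and 24.4% in GFP pericyte-like cells, and 44.3% in NeuroD1 fibroblast-like cells. In astrocyte-like cells Lamc1 made up 98.7% in NeuroD1 cells and 94.3% in GFP cells. The most abundant combination per class was therefore Lama2 or Lama4 with Lamb2 or Lamb1 and Lamc1 in pericyte-like cells, Lama5 with Lamb2 and Lamc1 in smooth muscle cell-like cells, Lama2 with Lamb2 and Lamc1 in astrocyte-like cells, and Lama5 with Lamb1 and Lamc1 in choroid plexus epithelium-like cells; RNA shares do not show which trimers were assembled.

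By the mean of both libraries, the choroid plexus epithelium led for a separate set of collagens. In the GFP library alone, Col9a3 was highest in oligodendrocyte precursor-like cells, at 419 CPM from 21 UMIs. Its interval there overlaps that of the choroid plexus. Col9a3, a chain of the fibril-associated type IX best known from cartilage, was at 535 CPM (523 to 548) in NeuroD1 and 394 CPM (358 to 432) in GFP choroid plexus epithelium-like cells. It was found in 81.6% of those NeuroD1 cells and 47.3% of the GFP cells, and, with cells thinned to 500 UMIs, in 24.5% (21.7 to 27.4) of the NeuroD1 and 11.7% (8.05 to 16.3) of the GFP cells. Col8a1 and Col8a2 encode the short-chain type VIII known from endothelia and from the membrane under the corneal endothelium. Col8a1 was at 348 CPM (338 to 359) in NeuroD1 and 256 CPM (227 to 287) in GFP cells, and Col8a2 at 106 CPM (101 to 112) in NeuroD1 and 94.2 CPM (77.1 to 114) in GFP cells. Col17a1, the transmembrane collagen of hemidesmosomes, was at 13.5 CPM in NeuroD1 and 3.56 CPM in GFP cells, from 174 and 4 UMIs in the NeuroD1 and GFP libraries.

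Choroid plexus RNA was also counted in cells of the other classes, more so in the NeuroD1 library for endothelial cell-like and astrocyte-like cells. Ttr stood at 10572 CPM in NeuroD1 and 2129 CPM in GFP endothelial cell-like cells, and at 10452 CPM in NeuroD1 and 2193 CPM in GFP astrocyte-like cells. Col9a3 had 1.17 UMIs per 1000 Ttr UMIs in NeuroD1 choroid plexus epithelium-like cells and 1.35 in GFP ones. In endothelial cell-like cells it had 1.13 in the NeuroD1 library (0.888 to 1.43) and 1.45 in the GFP library (0.394 to 3.70), with overlapping intervals, and in microglia-like cells 1.31 (0.967 to 1.73) in the NeuroD1 library and 1.98 (1.32 to 2.86) in the GFP library. The part of choroid plexus RNA in these levels was not tested. The ratio was higher in astrocyte-like cells, at 5.56 (5.15 to 5.99) in NeuroD1 cells and 28.7 (24.8 to 33.2) in GFP cells. It was higher still in oligodendrocyte precursor-like cells, at 27.6 (22.3 to 33.7) in NeuroD1 cells and 429 (265 to 655) in GFP cells. In CPM, Col9a3 was at 272 CPM (220 to 333) in NeuroD1 and 419 CPM (260 to 641) in GFP precursor-like cells, from 105 and 32 cells in the NeuroD1 and GFP libraries, and at 58.1 CPM (53.8 to 62.6) in NeuroD1 and 63 CPM (54.3 to 72.8) in GFP astrocyte-like cells. Col8a2 was above the ratio of the choroid plexus in NeuroD1 fibroblast-like cells, with 5.31 UMIs per 1000 Ttr UMIs (3.33 to 8.03) against 0.232 in the choroid plexus, and was listed at 0 in the 28 GFP fibroblast-like cells.

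Of the glial collagens, Col11a2 was mainly an astrocyte gene by UMIs. It encodes a chain of type XI, a fibrillar collagen of cartilage, and astrocyte-like cells held 66.8% of its UMIs of the NeuroD1 library and 77.8% of those of the GFP library. It was at 17.8 CPM in NeuroD1 and 91.5 CPM in GFP astrocyte-like cells, and at 63.6 CPM in NeuroD1 and 79.9 CPM in GFP oligodendrocyte precursor-like cells, from 22 and 4 UMIs in the NeuroD1 and GFP libraries. Col16a1, a fibril-associated collagen, was at 9.94 CPM in NeuroD1 and 45.4 CPM in GFP astrocyte-like cells, and at 34.3 CPM in NeuroD1 and 91.2 CPM in GFP fibroblast-like cells. Col27a1, a fibrillar collagen gene, had its highest mean in microglia-like cells, and Col2a1, at 4.18 CPM in NeuroD1 and 4.25 CPM in GFP oligodendrocyte-like cells, was low there.

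Between libraries, the members as a group lay furthest from all genes in astrocyte-like cells. Whether the GFAP promoter of the vector has a part in this was not tested. Of 21 genes with at least 20 UMIs in the 2 sums together, 15 were at least 1.5-fold lower in NeuroD1 cells and 3 at least 1.5-fold higher. Over all genes tested in that class, 24.6% were at least 1.5-fold lower and 10.8% at least 1.5-fold higher; among genes with 20 to 1000 UMIs, the range of most members, 27.7% were lower and 11.4% higher. The median log2 ratio of the members was -1.23 (order-statistic interval -1.66 to -0.59), against -0.16 for all genes. The 3 higher ones were Col8a1, Col8a2 and Col1a2, from 65, 19 and 19 UMIs in NeuroD1 cells and 4, 1 and 1 in GFP cells. Col8a1 and Col8a2 are among the genes led by the choroid plexus, whose 10 markers summed to 11022 CPM in NeuroD1 and 2401 CPM in GFP astrocyte-like cells. The interval of the ratio excluded 1 for 13 genes lower and 1 higher in the NeuroD1 library.

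Col11a2 had the lowest ratio among the astrocyte genes that could be named. Its 209 UMIs in 3671 NeuroD1 cells and 270 UMIs in 2164 GFP cells gave a ratio of 0.194 (0.161 to 0.233). It was lower in each of the 3 astrocyte clusters that held at least 50 cells of each library: at 23.5 CPM in NeuroD1 and 63.1 CPM in GFP cells of cluster 3, 45.6 CPM in NeuroD1 and 111 CPM in GFP cells of cluster 5, and 14.9 CPM in NeuroD1 and 37.7 CPM in GFP cells of cluster 7. The ratios within clusters were 0.372 (0.209 to 0.640), 0.411 (0.226 to 0.693) and 0.396 (0.206 to 0.852) in that order, each nearer to 1 than over the class. With cells thinned to 500 UMIs, Col11a2 was found in 1.09% (0.780 to 1.48) of NeuroD1 and 4.11% (3.32 to 5.04) of GFP astrocyte-like cells.

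Col16a1 followed, with a ratio of 0.219 (0.169 to 0.283) over the class and 0.278 (0.1 to 0.674), 0.165 (0.0335 to 0.496) and 0.368 (0.168 to 0.952) in clusters 3, 5 and 7. The laminin chains of astrocytes were also lower over the class: Lama2 by a ratio of 0.379 (0.307 to 0.468), Lamb2 by 0.426 (0.364 to 0.498), with 37.6 CPM in NeuroD1 and 88.4 CPM in GFP cells, and Lamc1 by 0.296 (0.211 to 0.418), with 6.63 CPM in NeuroD1 and 22.4 CPM in GFP cells. Within clusters the laminins were less uniform. Lama2 had ratios of 0.309 (0.146 to 0.611) in cluster 3, 0.767 (0.415 to 1.32) in cluster 5 and 0.980 (0.409 to 3.07) in cluster 7. Lamb2 had 0.633 (0.415 to 0.958) in cluster 3, 0.734 (0.464 to 1.12) in cluster 5 and 1.82 (0.769 to 5.67) in cluster 7. Different clusters held most astrocyte-like cells of each library: cluster 4 had 1352 NeuroD1 and 34 GFP cells and cluster 5 had 191 NeuroD1 and 1184 GFP cells, so that the class sums also differ in which clusters they contain.

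Genes with higher levels in vascular cells were also lower: Col4a1 was at 11.4 CPM in NeuroD1 and 19.3 CPM in GFP cells, and Col4a2 at 4.25 CPM in NeuroD1 and 11.9 CPM in GFP cells. All 10 pericyte markers were detected in NeuroD1 and 9 of 10 in GFP astrocyte-like cells (Abcc9 was at 0), with a summed level of 74.3 CPM in NeuroD1 and 196 CPM in GFP cells. The 11 endothelial markers summed to 92.3 CPM in NeuroD1 and 100.3 CPM in GFP cells, the 11 microglia markers to 177 CPM in NeuroD1 and 1828 CPM in GFP cells, and the 13 fibroblast markers (Lum at 0 in NeuroD1 cells, Dcn and Slc47a1 at 0 in GFP cells) to 162 CPM in NeuroD1 and 200.2 CPM in GFP cells. The depth also differed, with medians of 2466 UMIs in NeuroD1 and 1146 UMIs in GFP astrocyte-like cells. The part of these in the result was not tested, except that the thinned shares of Col11a2 above are at 1 depth. Col9a3 had a ratio of 0.922 (0.783 to 1.09).

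**Figure D4:**
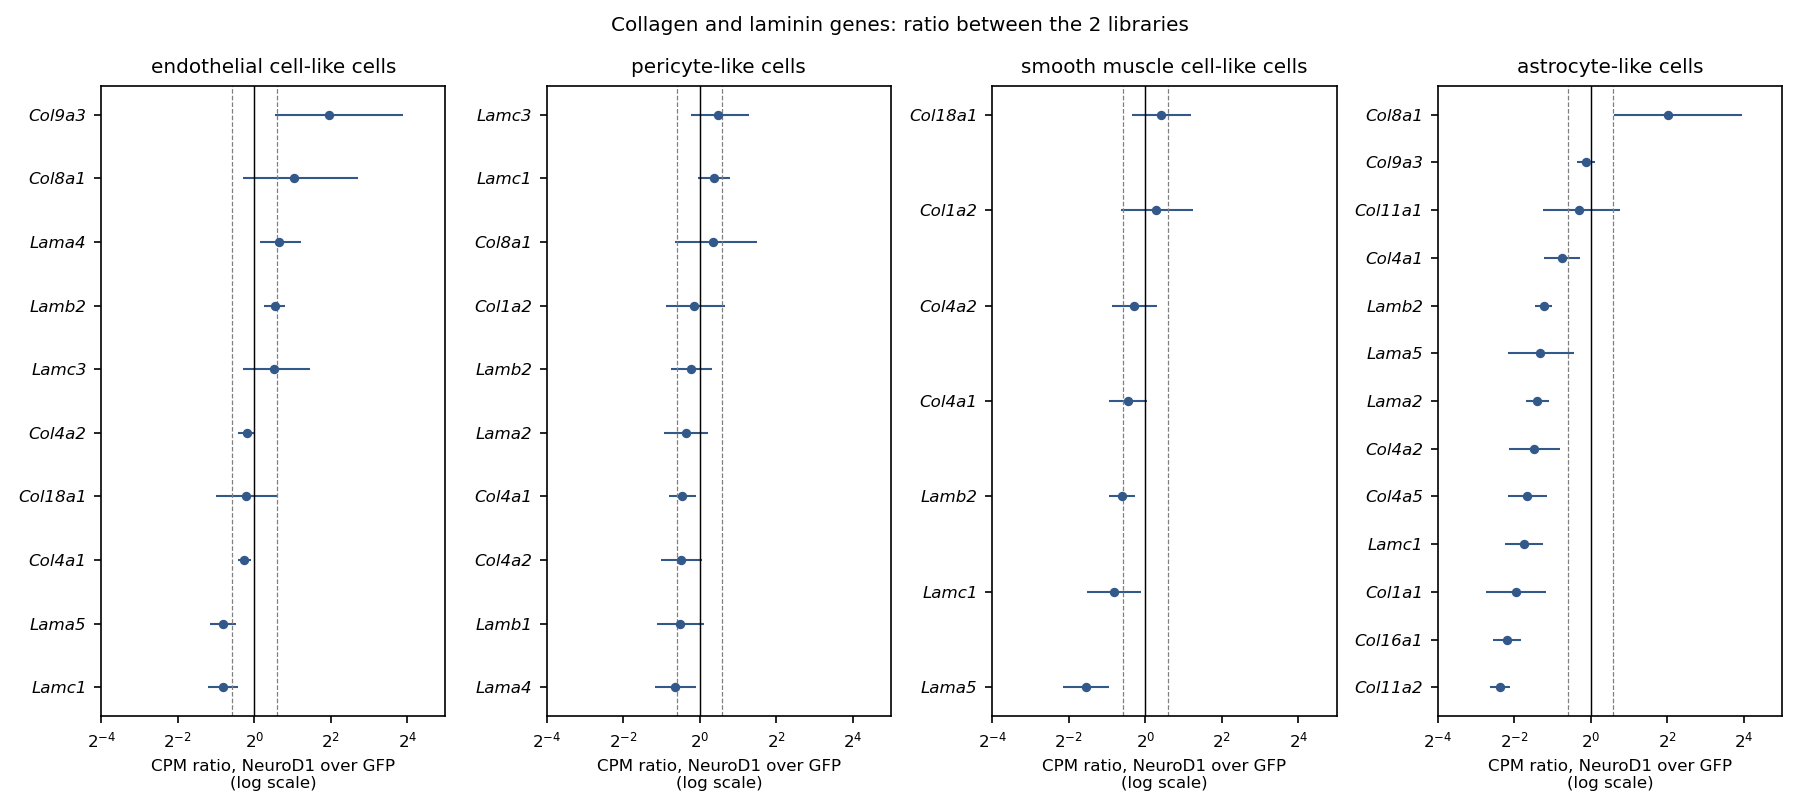
Ratio of CPM in the NeuroD1 library over the GFP library (log axis) for collagen and laminin genes with at least 50 UMIs in the 2 sums together, in 4 cell classes; points are ratios, bars 95% counting intervals, the solid line is 1 and the dashed lines mark 1.5-fold. In astrocyte-like cells most genes lie left of the line, with Col11a2 at 0.194.

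In endothelial cell-like cells, 4 of 14 genes were at least 1.5-fold higher in the NeuroD1 library, against 23.6% of all genes, and 4 at least 1.5-fold lower, against 12% of all genes. The median log2 ratio of the members was -0.23 (-0.82 to 0.90), against 0.15 over all genes. The main laminin alpha chains lay on opposite sides of 1: Lama4 was at 42.5 CPM (37.4 to 48) in NeuroD1 and 26.9 CPM (18.8 to 37.4) in GFP cells, a ratio of 1.58 (1.11 to 2.32). Lama5 was at 44.3 CPM (39.1 to 50) in NeuroD1 and 77.7 CPM (63.3 to 94.4) in GFP cells, a ratio of 0.570 (0.452 to 0.724). Lamc1 was also lower, at 33.6 CPM in NeuroD1 and 59.2 CPM in GFP cells, a ratio of 0.568 (0.435 to 0.749). The other lower genes were Col14a1, at 0.404 (0.209 to 0.814), and Col5a2, at 0.464 (0.178 to 1.35). Col4a1 had a ratio of 0.838 (0.748 to 0.942) and Lamb2 of 1.45 (1.20 to 1.76), both inside 1.5-fold. Median-of-ratios scaling moves every log2 ratio of this class by -0.17 and leaves the directions of Lama4 and Lama5 as they are, but with it Lama4 was no longer 1.5-fold higher, at a log2 ratio of 0.47 in place of 0.64, and its shifted interval includes 1. Lama4 was also under 1.5-fold with thinned cells, at 0.41, and in cells with at least 1000 UMIs, at 0.57. Lama5, at a log2 ratio of -0.81, was at -0.20 without cells carrying markers of another vascular or fibroblast class and at -0.57 by the mean of per-cell CPM, both within 1.5-fold.

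Here, too, different clusters held most of each library's cells, cluster 2 with 1708 NeuroD1 and 135 GFP cells and cluster 11 with 189 NeuroD1 and 864 GFP cells. Lama5 was lower in both, with ratios of 0.514 (0.331 to 0.836) in cluster 2 and 0.449 (0.160 to 1.02) in cluster 11. Lama4 was higher in both, with ratios of 1.95 (0.822 to 6.08) in cluster 2 and 2.32 (1.08 to 4.69) in cluster 11. Lamb2 had 145 CPM in NeuroD1 and 149.9 CPM in GFP cells of cluster 2, a ratio of 0.968 (0.695 to 1.39), and in cluster 11 a ratio of 2.02 (1.30 to 3.08). Col4a1 had ratios of 1.05 (0.813 to 1.39) in cluster 2 and 0.705 (0.492 to 0.986) in cluster 11. The other 3 higher genes were Col8a1, Col8a2 and Col9a3, all led by the choroid plexus by the mean of both libraries. Col9a3 was at 12 CPM in NeuroD1 and 3.08 CPM in GFP cells, beside the Ttr values given above.

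Pericyte-like cells, a single cluster, showed little displacement. Of 14 genes, 0 were at least 1.5-fold higher (23.8% of all genes were) and 2 at least 1.5-fold lower, Lama4 and Col28a1 (16.4% of all genes were). Lama4 was at 159 CPM (130.2 to 192) in NeuroD1 and 248 CPM (180.3 to 333) in GFP cells, a ratio of 0.641 (0.447 to 0.933), the opposite side of 1 from its ratio in endothelial cell-like cells; this difference between classes has no test with 1 library per group. The Lama4 direction in pericyte-like cells was not kept in cells with at least 1000 UMIs, of which the GFP library had 10, and with doublet calls kept its log2 ratio was -0.47 in place of -0.65, within 1.5-fold. Col4a1 had a ratio of 0.728 (0.574 to 0.931). The median log2 ratio was -0.24 (-0.53 to 0.30), against 0.03 over all genes.

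In smooth muscle cell-like cells, also 1 cluster, Lama5 was at 65.1 CPM (47.5 to 87) in NeuroD1 and 189.6 CPM (142 to 247) in GFP cells, a ratio of 0.343 (0.226 to 0.519). Lamb2 was at 270.3 CPM (233 to 312) in NeuroD1 and 414 CPM (343 to 496) in GFP cells, a ratio of 0.652 (0.515 to 0.829). The log2 ratio of Lamb2, -0.62, was within 1.5-fold with doublet calls kept (-0.33), with classes set per cell from markers (-0.48) and with at most 10% mitochondrial UMIs (-0.53). Of 12 genes, 4 were at least 1.5-fold lower and 1 at least 1.5-fold higher, Col8a1, where 14.8% of all genes were lower and 21.6% higher. Lama5 was thus on the lower side in both vascular classes that carry it as a main alpha chain, except that without smooth muscle cell-like cells carrying markers of another vascular or fibroblast class 0 NeuroD1 UMIs and 1 GFP UMI were left and the log2 ratio was 0.42. The members' median log2 ratio was -0.22 (-0.83 to 0.24), against 0.05 over all genes.

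Fibroblast-like cells gave values only, because the GFP library held 28 of them. Col1a2 had a ratio of 0.553 (0.393 to 0.795) while Col1a1 had 1.14 (0.722 to 1.89), and Col4a1 had 0.478 (0.301 to 0.787). In cells with at least 1000 UMIs the log2 ratios of Col1a2 and Col4a1 were -0.51 and -0.56, within 1.5-fold. Of 21 genes, 9 were at least 1.5-fold lower in NeuroD1 cells and 1 at least 1.5-fold higher, Col8a2, where 19.8% of all genes were lower and 36.2% higher. Ttr was at 12923 CPM in NeuroD1 and 17496 CPM in GFP fibroblast-like cells. The 11 microglia markers, all detected in both libraries, summed to 393 CPM in NeuroD1 and 7117 CPM in GFP fibroblast-like cells, and their part in these ratios was not tested.

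In microglia-like cells, where collagen RNA was scarce, Col27a1 was at 42.1 CPM (34.5 to 50.9) in NeuroD1 and 12.6 CPM (9.91 to 15.7) in GFP cells, a ratio of 3.35 (2.47 to 4.55). It was much nearer to 1 within the clusters that both libraries shared, at 1.55 (0.877 to 2.82) in cluster 8 and 0.922 (0.402 to 2.6) in cluster 14. Clusters 6, 9 and 13 held 1344, 1253 and 791 GFP cells and 13, 3 and 7 NeuroD1 cells, with GFP levels of 10.7, 8.76 and 8.51 CPM in that order. Clusters 8 and 14, which held most NeuroD1 cells, had NeuroD1 levels of 46.4 and 40.8 CPM and GFP levels of 29.9 and 44.2 CPM in that order. Of 11 genes, 5 were at least 1.5-fold higher in NeuroD1 cells and 3 at least 1.5-fold lower, where 34.9% of all genes were higher and 18.1% lower. The members' median log2 ratio was 0.18 (-0.99 to 2.06), against 0.31 over all genes.

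Oligodendrocyte-like cells had 7 of 15 genes at least 1.5-fold lower and 3 at least 1.5-fold higher, where 15.2% of all genes were lower and 12.9% higher. Lama2 was at 17.8 CPM (15.3 to 20.5) in NeuroD1 and 46.4 CPM (39.4 to 54.4) in GFP cells. Different clusters held most of these cells too, cluster 0 with 2834 NeuroD1 and 210 GFP cells and cluster 1 with 235 NeuroD1 and 2057 GFP cells. Within cluster 0 Lama2 had a ratio of 0.336 (0.225 to 0.521), and within cluster 1 of 0.505 (0.213 to 1.03). Lamc1 was at 16.3 CPM in NeuroD1 and 26.1 CPM in GFP cells. All 11 microglia markers were detected in both libraries and summed to 126 CPM in NeuroD1 and 1451 CPM in GFP oligodendrocyte-like cells, and the 10 choroid plexus markers (Otx2 and Aqp1 at 0 in GFP cells) to 12490 CPM in NeuroD1 and 6784 CPM in GFP cells; their part in the result was not tested. The median log2 ratio was -0.45 (-1.77 to 0.29), against 0.03 over all genes. In oligodendrocyte precursor-like cells only 2 genes, Col9a3 and Col11a2, had 20 UMIs. Of these, 0 were at least 1.5-fold higher and 1 lower, Col9a3, where 32.3% of all genes were higher and 16.9% lower.

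In choroid plexus epithelium-like cells, 4 of 16 genes were at least 1.5-fold higher in NeuroD1 cells and 1 at least 1.5-fold lower, where 11.5% of all genes were higher and 32.1% lower. The higher genes were Col5a2, Col14a1, Col17a1 and Col18a1, of which Col5a2 and Col14a1 had 1 UMI each in GFP cells, and the lower gene was Col1a2. Col9a3 and Col8a1 each had a ratio of 1.36, with intervals of 1.23 to 1.5 and 1.21 to 1.54. Over the alternative settings the log2 ratio of Col9a3 ranged from 0.31 to 1.13 and that of Col8a1 from -0.46 to 0.79. The direction of Col8a1 turned, to a log2 ratio of -0.46 in place of 0.44, without cells carrying markers of another vascular or fibroblast class, which left 66 NeuroD1 and 35 GFP UMIs, and that of Col17a1 turned with thinned cells (4 NeuroD1 UMIs, 1 GFP UMI). The collagen IV chains Col4a3 and Col4a4 had 1.03 (0.588 to 1.99) and 0.755 (0.498 to 1.19). Ttr itself was at 457476 CPM in NeuroD1 and 292082 CPM in GFP cells of this class. It is part of the total behind every CPM, so the other genes share a smaller remainder in the NeuroD1 library.

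The wider matrix list of 80 genes (other basement membrane proteins, collagen-processing enzymes, proteases with their inhibitors, and receptors) was set beside the members. In astrocyte-like cells 20 of 56 tested genes were at least 1.5-fold lower and 8 at least 1.5-fold higher, that is 35.7% and 14.3%, against 24.6% of all genes lower and 10.8% higher. The median log2 ratio of the list was -0.32 (-0.63 to -0.06), against -0.16 over all genes. The lower genes included 2 that meet laminin directly. Agrn, the heparan sulfate proteoglycan agrin that binds laminin, was at 13.8 CPM in NeuroD1 and 51.5 CPM in GFP cells, a ratio of 0.267 (0.213 to 0.336). Dag1, the laminin receptor dystroglycan of end feet, was at 133 CPM in NeuroD1 and 288 CPM in GFP cells, a ratio of 0.461 (0.424 to 0.502). Timp2, an inhibitor of metalloproteinases, had 0.395 (0.351 to 0.445). On the other side, Sparc, a matricellular protein that binds collagen, was at 1590 CPM in NeuroD1 and 811 CPM in GFP cells, and Mmp14, a membrane collagenase, at 138 CPM in NeuroD1 and 66.7 CPM in GFP cells.

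Sparc was higher in the NeuroD1 library in pericyte-like cells as well, with 2394 CPM in NeuroD1 and 1308 CPM in GFP cells, a ratio of 1.83 (1.59 to 2.11), where Itga7, a laminin-binding integrin, had a ratio of 0.572 (0.410 to 0.809). In endothelial cell-like cells Adgrg1, an adhesion receptor that binds collagen III, was at 238 CPM in NeuroD1 and 119 CPM in GFP cells, a ratio of 2 (1.69 to 2.37). In smooth muscle cell-like cells Ogn, the small proteoglycan osteoglycin, was at 169 CPM in NeuroD1 and 56.2 CPM in GFP cells, a ratio of 3.01 (1.78 to 5.44), and Bcam, a receptor for Lama5-containing laminins, was at 798 CPM in NeuroD1 and 506 CPM in GFP cells, a ratio of 1.58 (1.31 to 1.91). In fibroblast-like cells Timp3 was at 1144 CPM in NeuroD1 and 2167 CPM in GFP cells, a ratio of 0.528 (0.420 to 0.669). Microglia-like cells had Sparc at 4853 CPM in NeuroD1 and 1450 CPM in GFP cells, a ratio of 3.35 (3.26 to 3.44), in the same class sums whose cluster make-up differed. Over the list, endothelial cell-like cells had 8 of 48 genes higher (16.7%) and 3 lower (6.25%), both shares below those of all genes, 23.6% and 12%. Pericyte-like cells had 7 of 35 higher (20%) and 6 lower (17.1%), near the 23.8% and 16.4% of all genes. Smooth muscle cell-like cells had 9 of 35 higher (25.7%) and 2 lower (5.71%), against 21.6% and 14.8% of all genes.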

How the data were processed

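Single-cell RNA of 2 libraries was used, 1 per group. The authors deposited matrices of UMI counts, whole numbers per gene and barcode, not normalized; the submitters' processing notes name FastQC, fastp, cutadapt, STAR, featureCounts and mm39, without versions or roles. The labels' protocol describes a microwell SCOPE-chip and another label names a different platform; which was used, whether counting used strand, and the annotation release are not given in the sources used here, so reads of overlapping genes cannot be told apart.

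A filter of at least 200 genes and no more than 20% mitochondrial UMIs took out 131 NeuroD1 and 104 GFP barcodes. Scrublet marked 485 (3.65%) NeuroD1 and 556 (4.78%) GFP cells as doublets, and these were left out. Cells, scaled to 10000 UMIs each, were clustered on 3000 variable genes without collagens and laminins (30 principal components, 15 neighbours, Leiden resolution 1.0). Of 28 clusters, 26 were named from at least 3 markers among the 100 leading genes, giving 14 classes, and 2 stayed unnamed. Levels are class sums per 1000000 UMIs (CPM) with exact Poisson 95% intervals, ratios have exact conditional binomial intervals, and shares Clopper-Pearson intervals; log2 ratios add 0.5 UMI. A count of 0 allows up to 3 counts. The interval procedure was tested on simulated counts.

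Members and lists were chosen with earlier results of these data known, and the choroid plexus comparison and the range of 20 to 1000 UMIs were added after the data were seen. For library comparisons, genes were named if they had at least 50 UMIs in 1 sum and at least 25% of their highest class. Genes outside this rule were named after their values were seen. They were partner chains, the genes of small counts, Lamb2 in astrocyte-like cells, and those named in oligodendrocyte-like cells. Lamc1 in astrocyte-like, endothelial cell-like and smooth muscle cell-like cells was also named in this way. Classes with under 50 cells in a library have no median. Median-of-ratios scaling shifts log2 ratios by -0.17 in endothelial cell-like, -0.31 in microglia-like and 0.14 in astrocyte-like cells. Clustering used scanpy 1.11.5 with leidenalg 0.10.2, igraph 0.11.9 and scikit-learn 1.9.0; intervals used scipy 1.17.1, under Python 3.11.15 with pandas 2.3.3, numpy 2.4.6 and, for figures, matplotlib 3.10.9.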

Additional observations from a re-analysis of the deposited data

How the results depend on the processing

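Over 99 alternative values, the class medians stayed inside the intervals given in the report. The count of genes highest in vascular or fibroblast-like cells stayed within 1.5 times its value. That limit is wide for the count, so staying inside it is a weak test. The medians ranged from -1.4 to -1 in astrocyte-like, -0.4 to 0.14 in endothelial cell-like and -0.33 to -0.05 in pericyte-like cells. They ranged from -0.56 to 0.03 in smooth muscle cell-like, -1.15 to -0.27 in oligodendrocyte-like and -0.4 to 0.72 in microglia-like cells. The count ranged from 23 to 36, beside 34 of the 44 members. The 23 are out of the 30 genes with at least 100 UMIs, taken alone. The medians of endothelial cell-like, smooth muscle cell-like and microglia-like cells therefore crossed 0. For single genes named in a library comparison, 195 values stayed inside the interval, 19 moved outside it on the same side of 0, and 5 changed sign. Lama4 in pericyte-like cells reversed to 1.87 in cells with at least 1000 UMIs (78 NeuroD1 UMIs, 0 GFP UMIs from 10 cells) and to 0.80 without cells carrying markers of another vascular or fibroblast class (0 UMIs in both libraries, from 7 NeuroD1 and 14 GFP cells); under the last setting Lama5 in smooth muscle cell-like cells was 0.42 (0 NeuroD1 UMIs, 1 GFP UMI) and Col8a1 in the choroid plexus -0.46 (66 NeuroD1 UMIs, 35 GFP UMIs). Col17a1 in the choroid plexus was -0.19 with thinned cells (4 NeuroD1 UMIs, 1 GFP UMI). The cause was not tested. Fibroblast-like and oligodendrocyte precursor-like medians were not computed, since the GFP library held under 50 such cells. No paired analysis was possible because each group is 1 library. Depth limits the GFP library most.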

Other observations

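Cluster 18, which stayed unnamed because it carried 9 endothelial and 9 pericyte markers among its leading genes, held 187 NeuroD1 and 35 GFP cells, with a median of 4075 UMIs over both libraries. In it Col4a1 was at 247 CPM in NeuroD1 cells (217 to 280.2) and 194 CPM in GFP cells (103 to 332), close to endothelial cell-like cells. Lamc1, the gamma chain that was highest in pericyte-like cells, was at 128 CPM in NeuroD1 cells (107 to 153) and 209 CPM in GFP cells (114 to 351), between its levels in endothelial cell-like and pericyte-like cells of each library. Lama4 was at 59.9 CPM in NeuroD1 cells, against 29.9 CPM, from 2 UMIs, in GFP cells. Whether these barcodes hold 1 cell or more was not tested.

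Detection of pairs of collagen genes in the same cell was compared as a description, since deeper cells detect more of every gene. The pairs were partner chains, except Col9a3 and Col8a2, which encode chains of different types, IX and VIII. Without thinning, the second gene was found more often in cells with the first gene for each of the 5 pairs compared, in each class and library examined. With cells thinned to 500 UMIs, the shares for Col4a1 and Col4a2 lay the same way in the vascular classes, but from few cells. Among endothelial cell-like cells of the NeuroD1 library, Col4a2 was found in 8.71% of cells with Col4a1 and 7.16% of those without. In the GFP library it was found in 11.5% with and 6.80% without. Cells holding both numbered 21 in the NeuroD1 and 15 in the GFP library. Among smooth muscle cell-like cells, 2 of each library held both. The thinned shares have no interval, and their differences were not tested. For Col1a1 and Col1a2 in fibroblast-like cells, the shares were close in the NeuroD1 library. There Col1a2 was found in 23.3% of thinned cells with Col1a1 and 25% of those without, and 7 cells held both. Among the 28 cells of the GFP library it was found in 22.2% with and 52.6% without, and 2 cells held both. In choroid plexus epithelium-like cells thinned to this depth, the pair Col4a3 and Col4a4 could not be judged. Only 6 of 879 NeuroD1 cells held Col4a3 and 6 held Col4a4, against 2 and 1 of 256 GFP cells, and no cell held both. In the same class Col8a2 was found in 3.72% of cells with Col9a3 and 5.57% of those without in the NeuroD1 library, but in 13.3% with and 5.31% without in the GFP library. For Col6a1 and Col6a2 in thinned NeuroD1 fibroblast-like cells, 2 cells held both.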
